A study of Mus musculus with 34 samples.

Results

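The genes described here are 37 genes of the mitotic spindle, the spindle checkpoint and mitotic exit, out of 49686 gene symbols in the tables for mouse zygotes and late 2-cell embryos and 51734 in the table for blastocysts. They were taken by symbol, and all 37 were present in all 3 tables and passed every filter on low values. Zygotes had been injected with mRNA for wild-type (WT) CHK1, the kinase that delays mitosis while DNA is damaged, or for a mutant CHK1 named R442Q in the labels, and each embryo was sequenced alone with SMART-seq2. Zygotes comprised 5 with WT and 6 with R442Q CHK1, the late 2-cell stage 4 and 5, and the blastocyst stage 7 of each. Every blastocyst had been cultured with a Chk1 inhibitor at 30 nM, so neither blastocyst group is free of it, whereas the zygotes and late 2-cell embryos are labelled as untreated. WT embryos carry injected CHK1 mRNA too, and no uninjected embryo was used as a control. Strain, the age of the females and whether embryos of a group came from separate females are not given in the sources used here, so p-values measure only the spread between these embryos. The study's title asks what perturbing the DNA damage checkpoint does to preimplantation embryos, and the question here is how RNA of the mitotic machinery differed between genotypes and stages.

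In mitosis, kinetochores built on centromeric chromatin capture spindle microtubules, and the spindle checkpoint holds the anaphase promoting complex (APC/C) inactive until every chromosome is attached. APC/C bound to CDC20 then marks securin for destruction, which frees separase to cut cohesin, and APC/C bound to FZR1 (CDH1) completes exit. Mouse eggs store many of these messenger RNAs, clear much of the maternal store by the late 2-cell stage, and then rely on transcripts from the embryo's own genome.

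Many cell cycle genes share a pair of promoter motifs, the CCAAT box, which NF-Y binds, and the cell cycle homology region, which the MuvB core of the DREAM complex binds and which reads TTTGAA in its usual form and TTTAAA in a variant form. RefSeq promoters of the GRCm38.p6 build, from 250 bases before to 50 bases after the start site, were matched for 32 of the 37 genes and not for Aurkb, Incenp, Spc24, Bora and Tpx2. A gene with several such windows counted if any of them held the motif on either strand, and matches that overlap were kept. CCAAT occurred in 75% of the 32 genes and in 41.1% of 27025 genes with such a promoter. TTTGAA occurred in 59.4% against 20.2%, and TTTAAA, which reads the same on both strands, in 21.9% against 14.9%. A CCAAT box together with either hexamer occurred in 56.2% against 12.2%. These shares describe letters in a window and are neither binding sites nor tested. Below are the 150 bases before the start site of the 3 genes that act in turn at anaphase, Cdc20, Pttg1 (securin) and Espl1 (separase), and of Cenpa, which had the largest rise from zygote to late 2-cell in WT embryos. Capitals mark the CCAAT box and the 2 hexamers, or their reverse complements, and each run is read 5′ to 3′ along the gene's strand. The windows are chr4:118437344-118437493 (minus strand), chr11:43425982-43426131 (minus strand), chr15:102296143-102296292 (plus strand) and chr5:30666736-30666885 (plus strand), in that order.
Cdc20: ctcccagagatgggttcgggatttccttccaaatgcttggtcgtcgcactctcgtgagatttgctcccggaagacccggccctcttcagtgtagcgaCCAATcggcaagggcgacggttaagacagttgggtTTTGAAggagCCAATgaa
Pttg1: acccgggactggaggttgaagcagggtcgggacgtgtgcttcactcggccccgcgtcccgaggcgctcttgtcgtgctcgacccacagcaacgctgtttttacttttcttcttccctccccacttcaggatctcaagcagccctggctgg
Espl1: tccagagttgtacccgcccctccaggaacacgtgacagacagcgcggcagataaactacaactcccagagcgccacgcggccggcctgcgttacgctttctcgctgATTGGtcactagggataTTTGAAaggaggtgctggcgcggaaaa
Cenpa: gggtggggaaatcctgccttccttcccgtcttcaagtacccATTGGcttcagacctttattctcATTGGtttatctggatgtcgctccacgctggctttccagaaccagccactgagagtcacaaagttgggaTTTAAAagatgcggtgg
Cdc20, Espl1 and Cenpa each held CCAAT and 1 of the 2 hexamers in these bases, and no match was found in the Pttg1 window. Start sites are those of RefSeq; the GENCODE gene begins further upstream for all 4 genes, and for Pttg1, whose 5′ end is 43426251 on the minus strand, the whole window lies inside the annotated gene. The bases before that start of Pttg1 were not searched.

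The lowest and highest total of estimated counts were 7183632 and 11296522 among zygotes, and 5727956 and 8916343 among late 2-cell embryos; the depth of blastocysts in counts is unknown. Genes with an FPKM (fragments scaled to transcript length and sequencing depth) above 0 numbered 15041 to 20473 in the early embryos and 12337 to 18108 in blastocysts. FPKM of Chek1, the gene matching the injected mRNA, overlapped between genotypes at every stage, with medians of 4822 in WT and 6498 in R442Q zygotes. A mean FPKM of at least 1 was reached by 6 of 6 trophectoderm genes in blastocysts, by 6 of 6 oocyte and zygote genes in zygotes and also in late 2-cell embryos, and by 6 of 6 late 2-cell genes at that stage and 4 (WT) or 5 (R442Q) of them in zygotes. Of the trophectoderm genes, 5 also reached it in late 2-cell embryos of either genotype, and 1 (WT) or 3 (R442Q) in zygotes. The early stages differed in summed FPKM, which for the oocyte and zygote genes was at least 1381 in every zygote and at most 581 in every late 2-cell embryo. Of 12 cumulus cell genes, 0 reached that level in zygotes, and 2 did in late 2-cell embryos (Amhr2 and Tnfaip6), where Fshr, Hsd3b1 and Lhcgr were listed at 0 in all 9 embryos. FPKM summed over all genes ran from 712234 to 742246 in WT and from 814376 to 976830 in R442Q late 2-cell embryos. Genotypes there are therefore compared mainly in library-scaled counts (CPM, counts as a share of the library), and FPKM is named where it is used.

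On the per-length scale of FPKM, the genes covered a wide range and changed order between stages. Securin RNA (Pttg1) was the highest of the 37 in WT zygotes at an FPKM of 4312 ± 135 (SD, n = 5), ahead of Birc5 (survivin, the passenger complex subunit) at 1012 ± 55.5. Aurkc, the Aurora kinase of germ cells, followed at 375 ± 54.2, Cdca8 (borealin) at 312 ± 55.7 and the midzone bundler Prc1 at 303 ± 86.0; the last 2 differed by less than their SDs, and Aurkc exceeded Cdca8 by slightly more than either SD. Lowest were Aurkb at 16.5 ± 3.5, Spc24 at 13.1 ± 3.77 and Mki67 at 11.7 ± 3.9.

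In WT late 2-cell embryos (n = 4) the leading genes were Ube2c, the ubiquitin-conjugating enzyme of APC/C, at an FPKM of 884 ± 296, and Cenpa, the centromeric histone, at 683 ± 157. Pttg1 followed at 610.2 ± 145, the APC/C activator Cdc20 at 499 ± 253 and Birc5 at 439.7 ± 118, and neighbours from Cenpa on differed by less than their SDs, while Ube2c exceeded Cenpa by more than the SD of Cenpa and less than its own. Fzr1 (6.52 ± 2.63) and Bub1b (6.98 ± 7.21) were lowest. In WT blastocysts (n = 7) Pttg1 at 644 ± 357, Birc5 at 581 ± 128, Ube2c at 498 ± 144 and Cenpa at 402 ± 131 again led, with neighbours within their SDs, and Mki67 at 3.33 ± 1.63 was lowest. The tables of the 3 stages were normalised apart, so stage and table cannot be told apart on this scale and no test was made across them.

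The 4 subunits of the NDC80 complex, which binds microtubules as 1 unit, took different courses in WT embryos. Nuf2 had an FPKM of 186 ± 31.0 in zygotes, 24.5 ± 10.2 in late 2-cell embryos and 7.05 ± 3.87 in blastocysts, and moved from rank 10 to 29 to 33 among the 37 genes. Spc24 ran the other way, with 13.1 ± 3.77, 26.1 ± 8.49 and 189 ± 46.6, and ranks of 36, 27 and 8. Spc25 was highest at the late 2-cell stage, with 76.0 ± 8.74, 200.0 ± 25.5 and 37.7 ± 14.6. Ndc80 itself stayed between 24.3 and 40.2. Among the Aurora kinases, Aurkc had 375 ± 54.2, 32.4 ± 2.37 and 5.16 ± 5.14 at the 3 stages, Aurkb, the mitotic passenger kinase, 16.5 ± 3.5, 57.3 ± 23.9 and 30.3 ± 16.0, and Aurka, the spindle pole kinase, 218 ± 39.6, 162 ± 82 and 197 ± 46.7. Of the 1401-base Aurkc transcript, 54.8% of 50-base stretches also occur in other annotated genes, Gm12463 first among them, so its level is uncertain; this share was at least 4% for only 3 others, Cdc20, Fbxo5 and Racgap1.

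**Figure D1:**
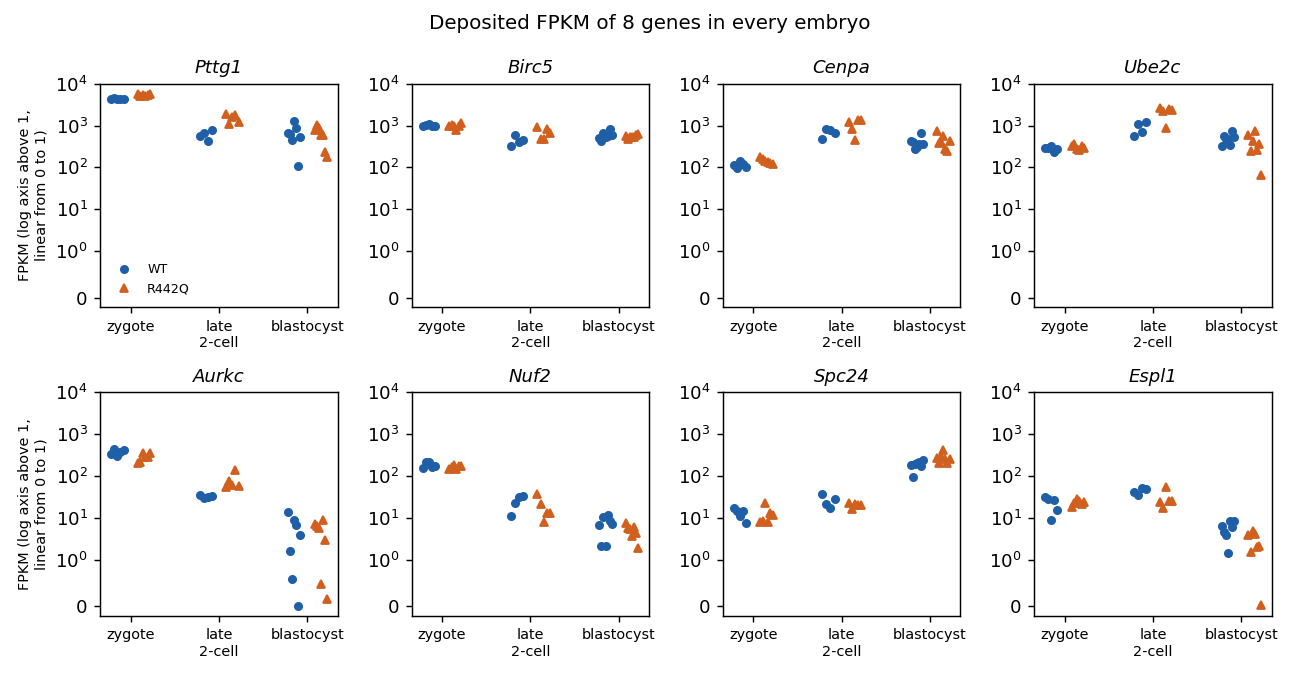
FPKM of 8 genes in every embryo at the 3 stages (log axis above 1 and linear from 0 to 1), with circles for WT and triangles for R442Q. In WT embryos mean Nuf2 and Aurkc are lower at each later stage, and Spc24 is highest in blastocysts in every embryo of both genotypes.

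In zygotes, 9 of the 37 genes differed between genotypes: Pttg1 was higher in R442Q embryos, and Incenp, Bub1b, Mad1l1, Cenpf, Ndc80, Fbxo5, Prc1 and Top2a were lower. That is 9 of 37 genes at an adjusted p under 0.05 in edgeR, where 13.2% of all 12420 tested genes passed, 6.3% as higher and 6.92% as lower. The median log2 fold change, R442Q over WT, was -0.10 for the 37 genes and 0.01 for all tested genes. Scaling by library totals moved the median of all genes to -0.113 and the share of higher genes among all calls from 47.7% to 27.3%, and called 1 of the 37 genes as higher and 11 as lower. Below, values are TMM-normalised CPM in each embryo, in the order of replicate numbers, which carry no order of their own. Overlap between genotypes is described for single genes, and its share over all tested genes was not counted at any stage.

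Pttg1 (chr11:43420250-43426251), securin, the inhibitor of separase, had 2167, 2195, 2192, 2239.6 and 2204 CPM in WT zygotes and 3322, 2876, 2912, 2844, 2999 and 3034 in R442Q zygotes. All 6 R442Q embryos lay above all 5 WT embryos, which differed among themselves by little. The log2 fold change was 0.45 ± 0.07 (SE, edgeR adjusted p = 0.00108). Fbxo5 (chr10:5799160-5805600), known as EMI1, the inhibitor of APC/C, had 246, 242, 233, 235 and 199 CPM in WT and 162, 120.5, 234, 162, 133 and 152 in R442Q zygotes. Only R442Q replicate 3 fell within the WT range, and the log2 fold change was -0.52 ± 0.14 (edgeR adjusted p = 0.0239). The other 5 genes that regulate APC/C or act through it did not pass: Ube2c had a log2 fold change of 0.25, Ube2s, the chain-extending enzyme, 0.05, Cdc20 0.04, Espl1 0.01 and Fzr1 -0.20.

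Among the 6 spindle checkpoint genes, 0 were higher and 2 lower, beside 6.3% and 6.92% of all tested genes. Bub1b (chr2:118598211-118641591), which encodes BUBR1, a part of the complex that restrains CDC20, had 92.5, 232, 79.1, 151 and 123 CPM in WT and 27.5, 35.3, 82.2, 43.9, 40.2 and 74.7 in R442Q zygotes. The groups overlapped only at WT replicate 3 and R442Q replicate 3, and the log2 fold change of -1.42 ± 0.29 was the largest of the 37 at this stage (edgeR adjusted p = 0.00438). Mad1l1 (chr5:140008689-140321552), the kinetochore anchor of MAD2, had 39.2, 37.7, 37.7, 39.8 and 41.8 CPM in WT and 16.7, 28.5, 32.6, 31.6, 23.3 and 24.8 in R442Q zygotes. The groups did not overlap, and the log2 fold change was -0.58 ± 0.16 (edgeR adjusted p = 0.0286). Mad2l1 (MAD2), with a log2 fold change of 0.27 ± 0.10, did not pass (edgeR adjusted p = 0.0887), and Bub1, Bub3 and the kinase Ttk (MPS1) lay between -0.19 and 0.16.

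Of the 7 kinetochore genes, 0 were higher and 2 lower, beside 6.3% and 6.92% of all tested genes. Ndc80 (chr17:71496100-71526857), the microtubule-binding subunit, had 61.3, 69.6, 61.6, 70.5 and 84.3 CPM in WT and 26.9, 13.2, 61.3, 17.8, 33.5 and 47.2 in R442Q zygotes. R442Q replicate 3 reached the lowest WT embryo and the other 5 lay below it, and the log2 fold change was -1.05 ± 0.29 (edgeR adjusted p = 0.0236). Its partners Nuf2, Spc24 and Spc25 had log2 fold changes between -0.04 and 0.07 and did not pass. Cenpf (chr1:189640606-189688086), a corona protein, had 452, 435, 453, 422 and 350.1 CPM in WT and 314, 327, 276, 233, 351 and 304 in R442Q zygotes. The groups met at WT replicate 5 and R442Q replicate 5, and the log2 fold change was -0.49 ± 0.11 (edgeR adjusted p = 0.00964). Cenpa at 0.40 ± 0.14 (edgeR adjusted p = 0.075) and the kinesin Cenpe at -0.27 did not pass.

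Of the 8 Aurora and passenger complex genes, Incenp (chr19:9872296-9899551), the scaffold that activates Aurora B, was the 1 that passed, a count near the 13.2% of all tested genes. It had 136, 131, 124, 138 and 135 CPM in WT and 111, 98.5, 113, 114, 103 and 105 in R442Q zygotes, without overlap, for a log2 fold change of -0.30 ± 0.10 (edgeR adjusted p = 0.045). It passed in 3 of 7 alternative fits, and not with RLE size factors (adjusted p = 0.056) or without the filter on low counts (adjusted p = 0.129). Nor did it pass after correction for GC content and transcript length, or in 1 model for both early stages. The other 7 (Aurka, Aurkb, Aurkc, Birc5, Cdca8, and the Aurora A activators Bora and Tpx2) lay between -0.34 and 0.23. Of 4 cytokinesis genes, Prc1 (chr7:80294450-80316259) had 453, 479.6, 467, 488 and 463 CPM in WT and 360.1, 308, 335, 277, 359 and 427 in R442Q zygotes, again without overlap, for a log2 fold change of -0.45 ± 0.11 (edgeR adjusted p = 0.0109). On FPKM the difference was larger, with means of 303 in WT and 139 in R442Q zygotes and a log2 fold change of -1.085 (limma adjusted p = 0.00109). Anln (anillin), Ect2 and Racgap1, which position and contract the cleavage furrow, lay between -0.31 and 0.25. Top2a (chr11:98992943-99024189), the topoisomerase that untangles sister chromatids, had 79.4, 74.6, 99.0, 76.2 and 65.9 CPM in WT and 47.4, 53.2, 67.1, 55.5, 59.8 and 66.8 in R442Q zygotes, where 2 R442Q embryos exceeded the lowest WT embryo (log2 fold change -0.44 ± 0.13, edgeR adjusted p = 0.0404). It did not pass on FPKM (limma adjusted p = 0.276). Mki67 (-0.18) and the mitotic entry genes Mastl (Greatwall), Ensa and Nek2 (-0.05 to -0.13) did not pass.

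**Figure D2:**
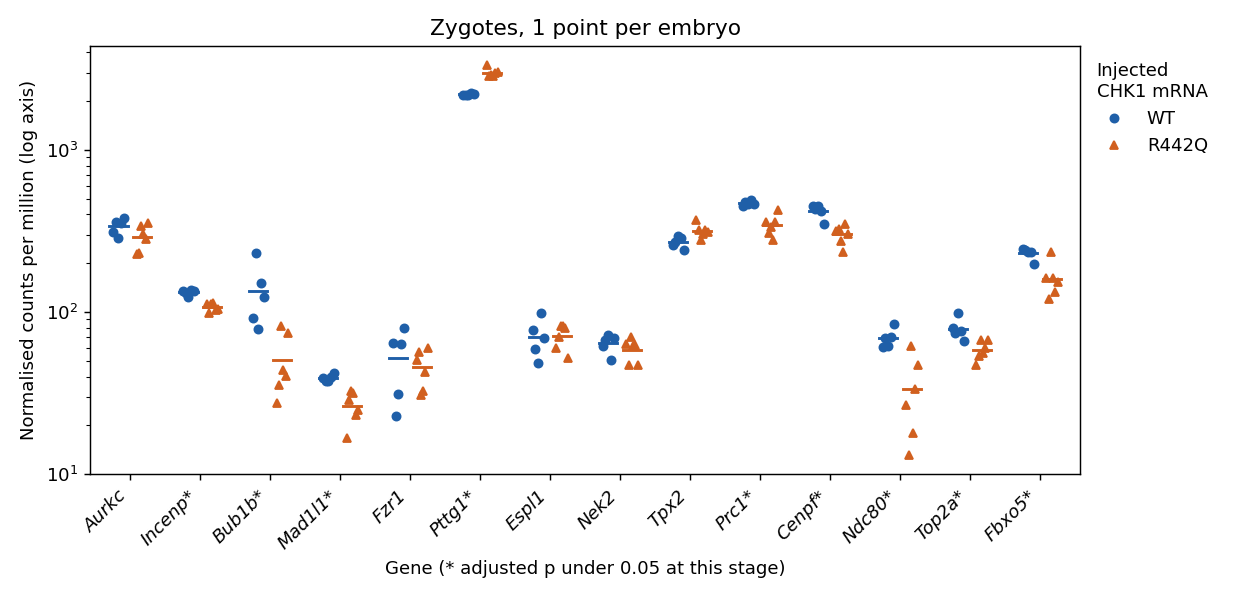
TMM-normalised CPM in zygotes (log axis) for the 14 genes called in a genotype comparison or in the test of its difference between stages, with 1 point per embryo and bars at group means (circles, 5 WT; triangles, 6 R442Q). Pttg1, Incenp, Mad1l1 and Prc1 show no overlap between genotypes. The genes were chosen by their calls, and the share of all tested genes without overlap was not counted.

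The median SD of the 37 genes on the log2 scale was 0.18 in WT and 0.21 in R442Q zygotes, against 0.32 and 0.35 for all tested genes. In a model that shares 1 estimate of spread with the late 2-cell embryos, 0 of the 37 and 270 of all genes passed, against 1643 in the zygote fit, and leaving out WT replicate 1, WT replicate 2, R442Q replicate 1 or R442Q replicate 5 left 5. Pttg1, Bub1b, Prc1 and Cenpf passed in all 11 fits that left out 1 embryo, Ndc80 in 9, Fbxo5 in 8, Mad1l1 in 4, Top2a in 3 and Incenp in 2. Summed FPKM of the oocyte and zygote markers was 1756 to 2096 in WT and 1381 to 1976 in R442Q zygotes. Mean FPKM of Bmp15, the highest of the 6, was 1025 in WT and 1053 in R442Q zygotes, and the other 5 were lower in R442Q zygotes (Gdf9 449 and 292, Nlrp5 227 and 155, Zp3 103 and 37.2, Zp2 79.9 and 58, Mos 27.8 and 8.76). Of the 6 late 2-cell markers, summing to 22.8 to 67.7 in WT and 35.3 to 114 in R442Q zygotes, 4 had higher means in R442Q zygotes (Zscan4c 0.588 and 6.05, Zscan4d 2.52 and 12.4, Usp17lc 2.81 and 12.5, Zfp352 1.93 and 8.47) and 2 lower (Tcstv3 39.1 and 25.6, Tdpoz4 0.076 and 0.0633). The part of either list in these differences was not tested.

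In late 2-cell embryos, securin RNA was again higher in R442Q embryos and 3 genes were lower: Incenp, Nek2 and Espl1, the last of which encodes separase, the protease that securin holds. These were 4 of 37 genes, where 4.18% of 13883 tested genes passed, 1.22% as higher and 2.95% as lower. The median log2 fold change was -0.14 for the 37 genes and 0.07 for all tested genes. Embryos differed more than at the zygote stage, with a median SD of the 37 genes on the log2 scale of 0.56 in WT and 0.57 in R442Q embryos. For all tested genes it was 0.57 in WT and 0.80 in R442Q embryos.

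Pttg1 had 291, 349, 275 and 409 CPM in WT and 1033, 599, 691, 868 and 626 in R442Q late 2-cell embryos. All 5 R442Q embryos lay above all 4 WT embryos, and the log2 fold change was 1.21 ± 0.29 (edgeR adjusted p = 0.0314; 0.054 without the filter on low counts). Espl1 (chr15:102296266-102324357) had 94.3, 136, 149 and 159 CPM in WT and 46.1, 34, 70.4, 81.0 and 49.9 in R442Q embryos. Every R442Q embryo lay below every WT embryo, with a log2 fold change of -1.26 ± 0.32 (edgeR adjusted p = 0.043). On the FPKM scale, whose totals differ between these genotypes, R442Q replicate 3 (56.2) exceeded all WT embryos, and Espl1 did not pass in limma. Securin and separase RNA differed in opposite directions in the same embryos, but after correction for GC content and transcript length the log2 fold changes were 0.52 for Pttg1 (adjusted p = 0.415) and -0.334 for Espl1 (adjusted p = 0.719). Nek2 (chr1:191821444-191833050), the kinase that splits centrosomes, had 102, 186, 118 and 111 CPM in WT and 39.5, 38.2, 34.8, 45.1 and 61.5 in R442Q embryos. Every R442Q embryo lay below every WT embryo, and the log2 fold change was -1.56 ± 0.31 (edgeR adjusted p = 0.0142). Incenp had 92.4, 181, 126 and 93.1 CPM in WT and 19.5, 19.9, 26.3, 37.9 and 60.5 in R442Q embryos, a log2 fold change of -1.90 ± 0.39 without overlap (edgeR adjusted p = 0.0169).

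Among the genes that did not pass, several differed by as much with a wider spread. Aurkc had 30.6, 27.9, 27.5 and 38.5 CPM in WT and 53.5, 73.0, 57.7, 138 and 56.4 in R442Q embryos, without overlap (log2 fold change 1.28 ± 0.36, edgeR adjusted p = 0.0619). Ube2c had 417, 854, 559 and 976 CPM in WT and 2327, 1793, 619.5, 2018 and 2003 in R442Q embryos, of which only replicate 3 lay within the WT range (1.32 ± 0.39, edgeR adjusted p = 0.0736). Fzr1, the APC/C activator of late mitosis, had 24.7, 22.3, 9.68 and 14.1 CPM in WT and 0.976, 5.75, 6.74, 0.346 and 3.82 in R442Q embryos, also without overlap (-2.32 ± 0.76, edgeR adjusted p = 0.0975). Mad1l1 had a log2 fold change of -1.69 ± 0.48 (edgeR adjusted p = 0.0621). The 5 genes Bub1b, Prc1, Cenpf, Ndc80 and Top2a, called as lower in zygotes, had log2 fold changes between -0.99 and 0.13 here and did not pass. Fbxo5, also lower in zygotes, had a log2 fold change above 0 here, 0.58 ± 0.30, and did not pass (edgeR adjusted p = 0.289).

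**Figure D3:**
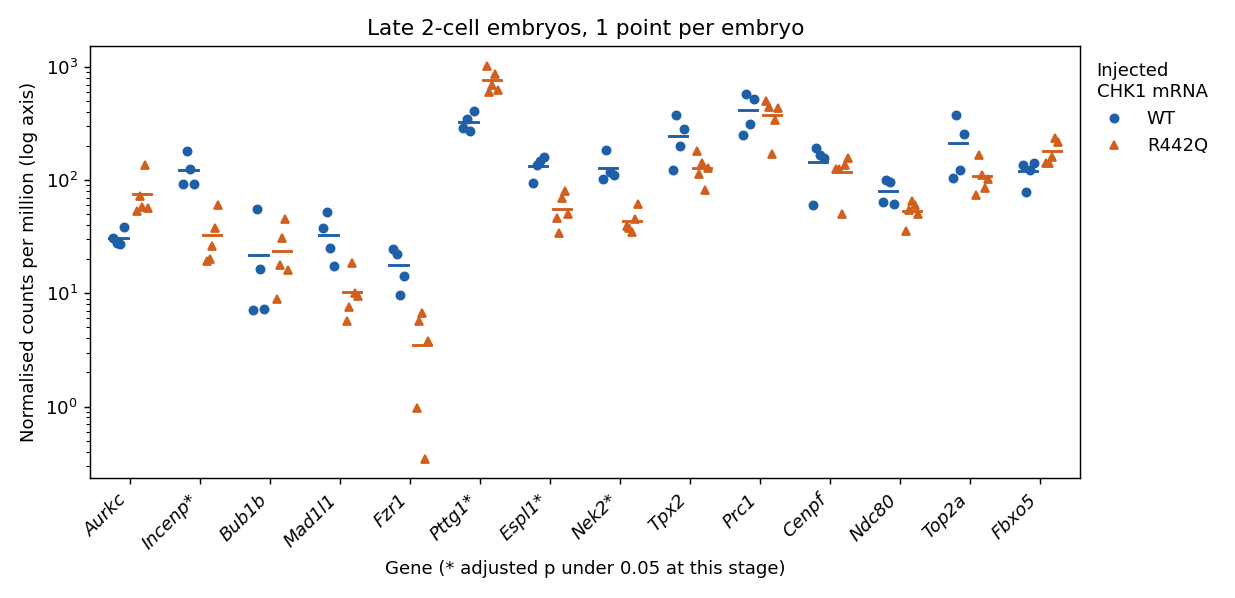
TMM-normalised CPM in late 2-cell embryos (log axis) for the same 14 genes, with 1 point per embryo and bars at group means (circles, 4 WT; triangles, 5 R442Q). Pttg1 and Aurkc are higher, and Incenp, Fzr1, Espl1 and Nek2 lower, in all R442Q embryos than in all WT embryos. The genes were chosen by their calls, and the share of all tested genes without overlap was not counted.

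After correction of every embryo for GC content and transcript length, only Nek2 still passed (adjusted p = 0.0482), while the 2-stage model called 11 genes and DESeq2 8; calls among all genes moved likewise, from 580 to 184 after the correction, 2507 in the 2-stage model and 1843 with DESeq2; across the 37 genes, which share these libraries, Pearson's r between GC content and the log2 fold change was -0.34 and Spearman's rho -0.22 (n = 37 genes). GC content was 46.0% for Pttg1, 51.6% for Aurkc and 55.5% for Ube2c, whose log2 fold changes were above 0, and 50.4% for Nek2, 54.7% for Incenp, 56.1% for Espl1, 56.8% for Mad1l1 and 59.9% for Fzr1, whose log2 fold changes were below 0. The part of GC content in these differences was not tested beyond that correction, under which the log2 fold change of Incenp was -1.21 (adjusted p = 0.126). Without WT replicate 1, 3 or 4, or R442Q replicate 1, 2 calls were left, without WT replicate 2 there were 0, and without R442Q replicate 3 there were 8; Incenp and Nek2 passed in 8 of these 9 fits, Pttg1 in 3 and Espl1 in 2. WT replicate 1 was the lowest WT embryo for 27 of the 37 genes and R442Q replicate 3 the lowest R442Q embryo for 19. Summed FPKM of the 6 late 2-cell markers was 111 to 1061 in WT and 567 to 1929 in R442Q embryos, on a scale whose totals differ between these genotypes. Mean FPKM was 195 in WT and 685 in R442Q for Tcstv3, and 106 and 246 for Zfp352. Zscan4c (45.1 and 153), Zscan4d (43.9 and 104) and Tdpoz4 (38.4 and 50.5) were also higher in R442Q, and Usp17lc (63.8 and 50) was lower. The part of these markers in the genotype differences was not tested.

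In blastocysts cultured with the inhibitor, no difference between genotypes was detected for any of the 37 genes. In limma, 0 of 37 passed, as against 1 of 11297 tested genes (0.00885%), and at an unadjusted p under 0.05 there were 2, Spc24 and Espl1, as against 7.4% of all genes. The log2 fold change on the log2(FPKM + 1) scale was below 0 for 33 of the 37 (89.2%) and 59.3% of all tested genes, with medians of -0.25 and -0.10. Without R442Q replicate 7 it was below 0 for 20 of the 37 (54.1%) and 49.8% of all tested genes, with a median of -0.06 for the 37. Spc24 had 187.7, 94.7, 194, 204, 221, 179 and 241 FPKM in WT and 265, 209.7, 298, 410.1, 252, 211 and 255 in R442Q blastocysts, where 5 of 7 R442Q embryos exceeded all WT embryos (0.54 ± 0.21, limma adjusted p = 0.522). Espl1 had 6.51, 4.53, 3.92, 1.49, 8.35, 6.09 and 8.65 FPKM in WT and 3.98, 1.57, 4.99, 4.16, 2.08, 2.15 and 0.03 in R442Q blastocysts (-0.91 ± 0.43, limma adjusted p = 0.67). Pttg1, higher at both earlier stages, ranged from 110.3 to 1249.5 FPKM with a median of 615 in WT and from 174 to 1052 with a median of 608 in R442Q blastocysts, with a log2 fold change of -0.02 ± 0.48.

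R442Q replicate 7 was the lowest R442Q blastocyst for 24 of the 37 genes and had the fewest detected genes of all, 12337; leaving it out, or the 3 blastocysts with the fewest genes together, an omission chosen after seeing the data, left the count at 0. In whole embryos fewer cells of a type and less RNA per cell cannot be told apart. Summed FPKM of the trophectoderm markers was 3205 to 24265 in WT and 1189.8 to 12848 in R442Q blastocysts, mostly from Krt8 and Krt18. Mean FPKM was 5127 in WT and 3189 in R442Q for Krt18, and 4158 and 2094 for Krt8. Gata3 (311 and 295), Tead4 (29.5 and 23.8) and Cdx2 (19.3 and 12.1) were also lower in R442Q, and Eomes (8.83 and 12.6) was higher. The part of these markers was not tested.

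**Figure D4:**
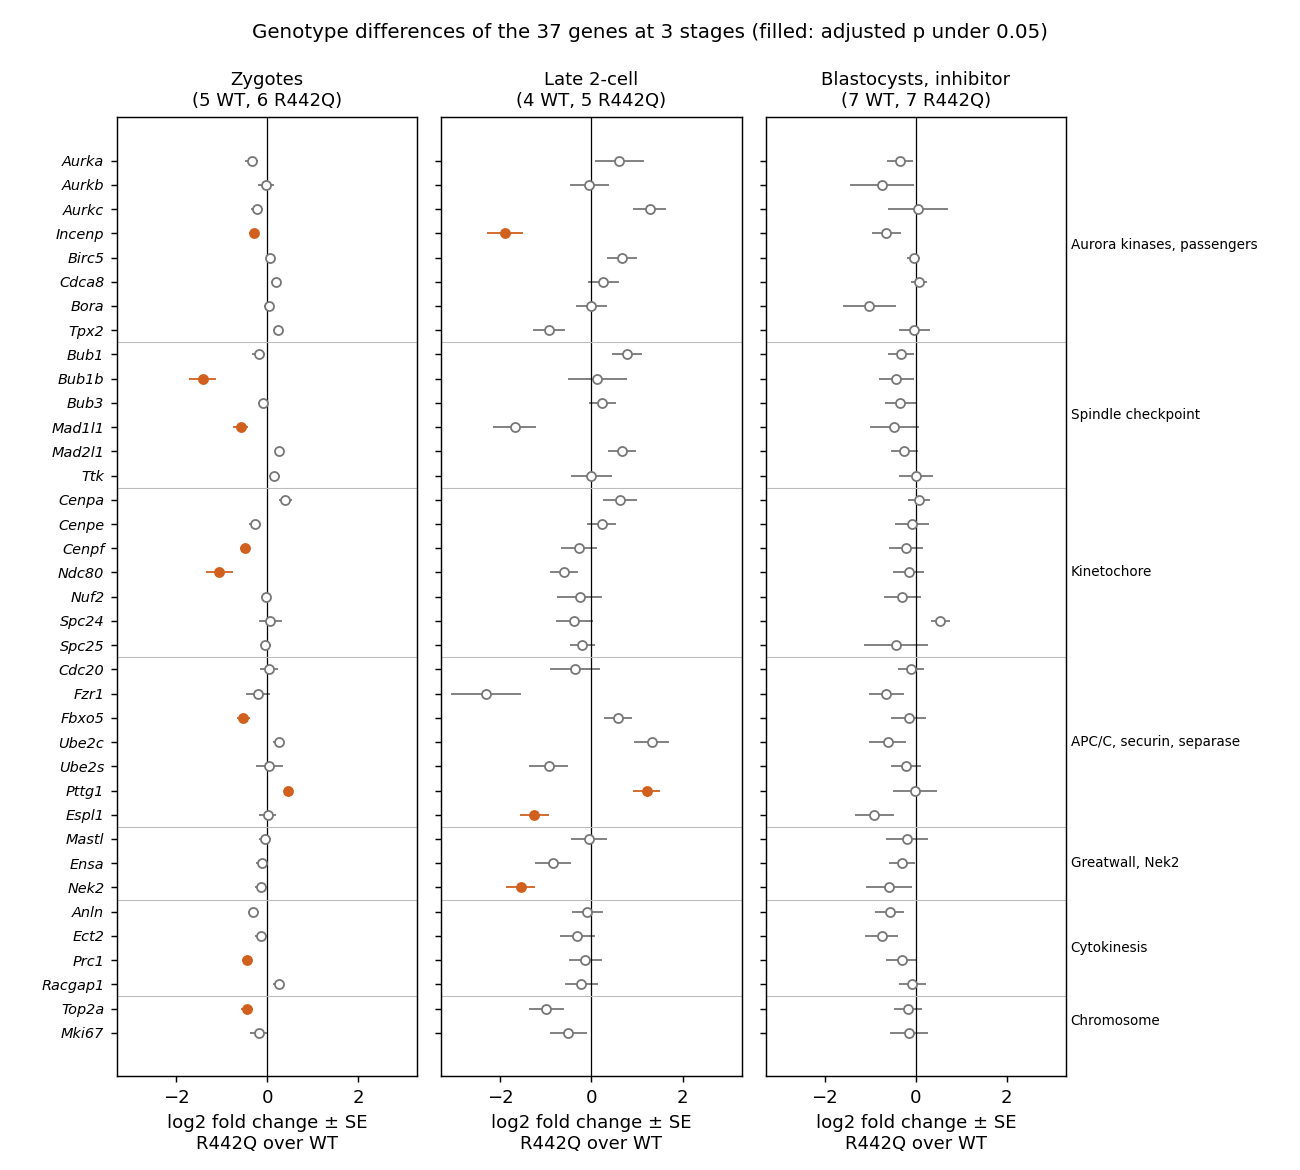
Log2 fold change of R442Q over WT with its SE for all 37 genes by role at the 3 stages, filled where the adjusted p was under 0.05. In zygotes 9 genes are filled, Bub1b and Ndc80 farthest from 0, in late 2-cell embryos 4, and in blastocysts none.

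From zygote to late 2-cell in WT embryos, 23 of the 37 genes changed as a share of counts, 9 rising and 14 falling. Among all 16199 tested genes, 61.2% changed, 36.2% rising and 25% falling, so a change as such did not set the 37 apart. The median log2 change was -0.27 for the 37 genes and 0.34 for all genes. Stage is also the table and the set of embryos here, and these cannot be told apart.

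The 4 largest rises were in Cenpa, Aurkb, Ube2c and Top2a. Cenpa (chr5:30666777-30674830) went from 128, 105, 165, 147 and 118 CPM in WT zygotes to 354, 673, 633 and 563 in WT late 2-cell embryos (log2 change 2.07 ± 0.27, edgeR adjusted p = 8.62e-07). Aurkb (chr11:69045647-69051664) went from 20.6, 29.5, 24.8, 27.3 and 35.5 to 51.5, 149.7, 54.9 and 105 CPM (1.71 ± 0.34, edgeR adjusted p = 0.00016). Ube2c (chr2:164769898-164778822) went from 215, 227, 256, 181 and 224 to 399.9, 836, 536 and 942 CPM (1.62 ± 0.28, edgeR adjusted p = 2.86e-05). In each of these 3 genes every late 2-cell embryo lay above every zygote. Top2a went from 79.0, 80.3, 104, 77.8 and 67.2 to 101, 369, 119 and 248 CPM, with WT replicate 1 of the late 2-cell embryos inside the zygote range (1.36 ± 0.31, edgeR adjusted p = 0.000573). Spc25, Cdc20, Spc24, Nek2 and Espl1 rose by 0.84 to 1.21.

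The 4 largest falls were in Aurkc, Nuf2, Pttg1 and Bub1b. Aurkc (chr7:6995300-7003091) went from 308, 384, 298, 364 and 387 CPM in zygotes to 29.3, 27.2, 26.3 and 37.2 (log2 change -3.54 ± 0.29, edgeR adjusted p = 5.27e-10). Nuf2 (chr1:169497934-169531464) went from 293, 412, 438, 327 and 347 to 20.2, 42.5, 60.7 and 66.6 CPM (-2.94 ± 0.39, edgeR adjusted p = 7.74e-07). Pttg1 went from 2156, 2362, 2292, 2287 and 2249 to 279, 341, 263 and 395 CPM (-2.83 ± 0.19, edgeR adjusted p = 2.74e-11). Bub1b went from 92.1, 250.1, 82.7, 155 and 126 to 6.88, 54.8, 15.8 and 6.98 CPM (-2.74 ± 0.58, edgeR adjusted p = 0.00032). No late 2-cell embryo reached any zygote in these 4 genes. By role, beside 36.2% of all genes rising and 25% falling, 4 of 6 checkpoint genes fell and 0 rose, 3 of 7 kinetochore genes rose (Cenpa, Spc24, Spc25) and 3 fell (Nuf2, Cenpe, Cenpf), and 3 of 7 APC/C-linked genes rose (Cdc20, Ube2c, Espl1) and 3 fell (Pttg1, Fzr1, Fbxo5). Aurora B and Aurora C RNA changed in opposite directions.

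In R442Q embryos 25 of 37 genes changed, 6 rising and 19 falling, where 65.1% of all genes did, 35.3% rising and 29.8% falling; the medians were -0.60 and 0.22, the latter 0.341 with RLE size factors. Cenpa (2.22 ± 0.25), Aurkb (1.6 ± 0.31), Ube2c (2.60 ± 0.26), Spc25, Bub1 and Top2a rose, and Fzr1 (-3.85 ± 0.52), Nuf2 (-3.27 ± 0.35), Ttk (-2.80 ± 0.32) and Pttg1 (-2.15 ± 0.17) fell most.

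The test of whether the genotype effect differed between zygotes and late 2-cell embryos called 7 of the 37 genes, 2 as higher and 5 as lower at the late 2-cell stage, where 10.1% of all genes were called, 3.07% as higher and 7.05% as lower. Nek2 (difference of log2 fold changes -1.52 ± 0.31, edgeR adjusted p = 0.0031) and Espl1 (-1.35 ± 0.35, edgeR adjusted p = 0.0168) both rose from zygote to late 2-cell in WT embryos, by 0.92 and 0.84, whereas in R442Q embryos Nek2 fell by 0.60 and the log2 change of Espl1 was -0.51 (edgeR adjusted p = 0.0649). Incenp (-1.69 ± 0.37, edgeR adjusted p = 0.00497), Tpx2 (-1.26 ± 0.34, edgeR adjusted p = 0.0183) and Fzr1 (-2.20 ± 0.69, edgeR adjusted p = 0.0421) were the other 3 lower ones; Fzr1 did not pass with RLE size factors (adjusted p = 0.0553) or library totals (adjusted p = 0.0648). Tpx2 (chr2:152847964-152895321), which activates Aurora A on the spindle, had 260.1, 269, 293, 287 and 242 CPM in WT and 369, 323, 277, 303, 321 and 309.8 in R442Q zygotes, and 124, 381, 202 and 284 in WT and 180.1, 114, 143, 81.3 and 128 in R442Q late 2-cell embryos. Aurkc (1.42 ± 0.34, edgeR adjusted p = 0.0102) and Fbxo5 (1.02 ± 0.30, edgeR adjusted p = 0.0335) were higher; Fbxo5 did not pass without the filter on low counts (adjusted p = 0.0656). Fbxo5 fell by 1.04 in WT embryos, from a zygote level that was already lower in R442Q embryos, where its log2 change was -0.01. Pttg1 did not pass (0.67 ± 0.23, edgeR adjusted p = 0.0696), although it did in 3 of 4 alternative fits, so its larger ratio at the late 2-cell stage was not shown to differ from that in zygotes.

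**Figure D5:**
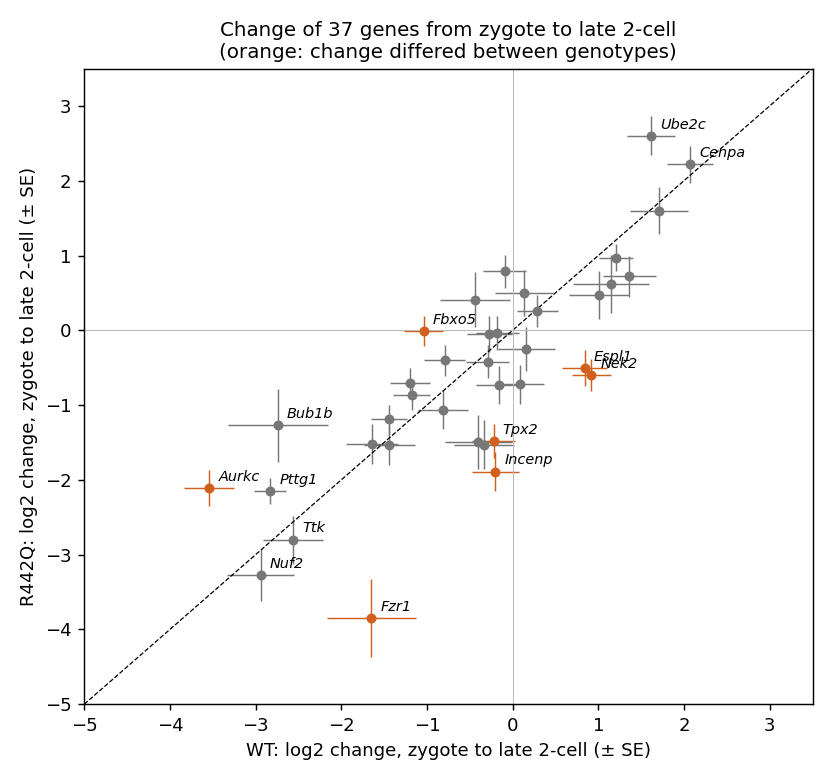
Log2 change from zygote to late 2-cell with its SE for the 37 genes, WT on the x axis and R442Q on the y axis, with equal change on the dashed line. The 7 orange genes are those whose genotype effect differed between the stages, and Incenp, Tpx2, Nek2, Espl1 and Fzr1 lie below the line.

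TMM scaling set the median of this difference over all genes at -0.161, against -0.006 with RLE size factors, a shift by which the signs should be read; 30.3% of all calls were higher with TMM and 43.5% with RLE, and among the 37 genes 2 of 7 and 4 of 8 were. Incenp, Nek2 and Aurkc passed in all 20 fits that left out 1 embryo, Fbxo5 in 16, Espl1 in 13, Tpx2 in 12 and Fzr1 in 5; 4 calls were left without zygote WT replicate 2, zygote R442Q replicate 4 or 5, or late 2-cell WT replicate 2, and 13 without late 2-cell R442Q replicate 3. The correction for GC content and transcript length was not run for this difference between stages. Across the 37 genes, its Pearson's r with GC content was -0.35 and Spearman's rho -0.26.

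Other genes of the same machinery were counted by list, apart from the 37. In zygotes 0 of 14 APC/C subunits were higher and 2 lower, Anapc4 (-0.88 ± 0.18, edgeR adjusted p = 0.00476) and Anapc11 (-0.61 ± 0.14, edgeR adjusted p = 0.00945). The APC/C count is near the 13.2% of all genes called in zygotes. Of 34 other kinetochore and centromere genes tested, 0 were higher and 8 lower, beside 6.3% and 6.92% of all genes. Spdl1, which recruits dynein to kinetochores, had the largest of these differences (-1.18 ± 0.19, edgeR adjusted p = 0.000885), and Knl1, the platform for BUB proteins, was lower by a log2 fold change of -0.61 ± 0.15 (edgeR adjusted p = 0.0108). Of 19 other spindle and cytokinesis genes tested, 3 were higher (Cdca3, Cep55 and Knstrn) and 3 lower (Psrc1, Dlgap5 and Ckap2), and of 5 Greatwall target and phosphatase genes 0 passed. In late 2-cell embryos 5 of the 72 tested genes of these lists passed (6.94%, beside 4.18% of all genes), 1 higher, Cenpq (1.54 ± 0.33, edgeR adjusted p = 0.02), and 4 lower, Anapc7, Mis12, Haspin and the kinesin Kifc1 (-5.38 ± 1.11, edgeR adjusted p = 0.0169). In blastocysts 0 of these genes passed.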

How the data were processed

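Single embryos were sequenced as SMART-seq2 cDNA in Nextera libraries, per the labels' protocols. The deposited tables for zygotes and late 2-cell embryos hold estimated counts, not normalised, and the deposited tables for all 3 stages hold FPKM computed by the authors. Columns of the blastocyst table carry the genotype and a number but no mention of the inhibitor. They were assigned to the inhibitor-treated samples because genotypes, group sizes and numbers match. RSEM and the mm10 build are named in the submitters' processing notes, and whether counting used strand is not given in the sources used here. Genes that overlap a gene on the other strand, such as Fzr1, Ube2c, Espl1, Nek2, Prc1, Cenpf, Top2a and Mad1l1, are uncertain to that extent. Gene positions, lengths and GC content came from GENCODE M21 (GRCm38), and promoters from RefSeq.

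Estimated counts were rounded, filtered with filterByExpr (minimum count 10), scaled by TMM and tested with the quasi-likelihood test of edgeR 4.0.16 in R 4.3.3, 1 stage at a time. A 4-group model tested the stage change in each genotype and the difference of the genotype effect between stages. For blastocysts, log2(FPKM + 1) values entered limma 3.58.1 (trend option), keeping genes that reached an FPKM of 1 in 7 or more embryos; fold changes on that scale understate those of low genes. P-values were Benjamini-Hochberg adjusted over all tested genes, with a threshold of 0.05. Alternatives were RLE and unscaled library totals, DESeq2 1.42.0, no filter, FPKM in place of counts, 1 model for both early stages, removal of length and GC trends, other blastocyst scalings and a pseudocount of 0.1, a replicate block and leaving out each embryo. The tests were also run on simulated data with a fixed spread and no GC or length trends. That run does not show how the spread and trends of these embryos affect the calls. No 2 columns of the zygote or late 2-cell count tables were identical.

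All 37 genes are accounted for. Genes past the threshold in a genotype comparison, or in the test of its difference between stages, are named with their values, and for the stage change the 4 largest rises and falls in WT are given in full. Further genes near the threshold were named after their values were seen. The genes and lists were chosen with earlier results of these data known.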

Additional observations from a re-analysis of the deposited data

Results flagged for a closer look

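A single embryo stood apart from the rest of its group, by Dixon's 95% criterion, in 14 of 222 combinations of gene and group, where chance gives about 1 in 20. In zygotes, WT replicate 3 was the highest WT embryo for Aurka at 464 CPM (next 340.1), Birc5 at 812 (next 739) and Mad2l1 at 515 (next 438). For Fbxo5, WT replicate 5 was low at 199 CPM (next 233) and R442Q replicate 3 high at 234 (next 162). In late 2-cell embryos, WT replicate 3 was high for Ttk at 129.8 CPM (next 44.5) and low for Ensa at 33.6 (next 55.9). R442Q replicate 4 was high for Aurkc at 138 CPM (next 73.0), and R442Q replicate 1 for Ube2s at 50 (next 25.8). R442Q replicate 3 was low for Mad2l1 at 154 CPM (next 351) and for Cenpf at 49.9 (next 127). In blastocysts, WT replicate 6 was high for Cenpa at 672 FPKM (next 437), WT replicate 2 low for Spc24 at 94.7 (next 179) and R442Q replicate 4 high for Top2a at 189 (next 88.9).

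The genotype effect differed between late 2-cell embryos and zygotes for 7 genes in the 4-group edgeR model. The differences of log2 fold changes were 1.42 for Aurkc, 1.02 for Fbxo5, -1.26 for Tpx2, -1.35 for Espl1, -1.52 for Nek2, -1.69 for Incenp and -2.20 for Fzr1.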

How the results depend on the processing

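The number of the 37 genes called in zygotes was 9, and 0 in the model of both early stages, with 5 to 10 when 1 embryo was left out. In late 2-cell embryos the 4 calls became 8 with DESeq2, 11 in the model of both early stages and 1 with length and GC trends removed (calls among all genes went from 580 to 1843, 2507 and 184), and 0 to 8 with 1 embryo left out. For the genotype effect that differed between stages, 7 calls became 4 to 13 with 1 embryo left out. The stage change in WT embryos kept 20 to 23 calls and that in R442Q embryos 21 to 26 with 1 embryo left out, and blastocysts had 0 under every alternative. Scaling by library totals gave 12 calls in zygotes, where 27.3% of all calls were higher as against 47.7% with TMM. With the replicate block the calls were 6 in zygotes, 0 in late 2-cell embryos, 23 and 26 for the stage change in WT and R442Q embryos, and 4 for the difference between stages. Whether replicate numbers pair these embryos is not known. Same-numbered embryos of both genotypes correlated at -0.06 to 0.06 in zygotes, -0.16 to 0.23 in late 2-cell embryos and -0.17 to 0.20 in blastocysts. Of these pairs, 0 of 5, 1 of 4 and 3 of 7 in turn exceeded 0.1. Some columns of zygotes and late 2-cell embryos carry numbers other than the replicate numbers, and pairs by those were not compared. Values under each alternative were kept for the 14 genes named in the genotype comparisons and for 8 genes of each stage change, and none of these that was called changed direction. The cause of these changes was not tested.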
